A study of Mus musculus with 2 samples.

Results

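Oxidative phosphorylation is the last stage of respiration, in which 5 protein complexes of the mitochondrial inner membrane carry electrons from NADH and succinate to oxygen and use the resulting proton gradient to make ATP. Most subunits are coded in the nucleus and imported, and a small set is coded in the mitochondrial genome. Complexes I, III, IV and V are built from both sets, while complex II is nuclear only. Complex IV, cytochrome c oxidase, has several subunits with a broadly expressed form and a second form known from heart and muscle, lung or testis, so these genes also report on which tissues a sample holds. The genes described here are the nuclear ones, taken as protein-coding genes whose symbols begin with Nduf followed by A, B, C, S or V, are Sdha to Sdhd, or begin with Uqcr, with Cox and a numeral from 4 to 8, or with Atp5. The annotation held 85 such genes and 84 were quantified, of 43346 genes in the tables, and the remaining gene is a second identifier for Atp5o. The choice used names and not measured values, and 10 quantified pseudogenes with matching names were kept apart.

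The libraries were made from total RNA of the limb of mouse embryos at 11.5 days, a stage at which limb buds consist mostly of mesenchyme covered by ectoderm, with ingrowing vessels and the first muscle precursors. There was 1 group of 2 biological replicates, with no treatment: replicate 1 combined limbs of 109 embryos, replicate 2 those of 88, both of mixed sex and of the strain the labels call B6NCrl. Input was 10 ng per library, of RNA above 200 nt, with spike-in RNAs. With a single group, the tests below compare these libraries and not conditions.

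Depth was 43.0 M and 35.1 M expected counts in replicates 1 and 2. Spike-ins and other entries that are not genes took 11.8% of TPM (a transcript level corrected for gene length and library size) in replicate 1 and 17.2% in replicate 2. The summed gene TPM of replicate 2 was therefore 0.939 of that in replicate 1. In TPM, 81 of the 84 genes read lower in replicate 2, among them 77 of the 79 genes at 1 TPM or more in both, where 65.3% of 12068 such nuclear protein-coding genes did. The median ratio of replicate 2 to replicate 1 was 0.915 over the 79 genes and 0.959 over those 12068. At 1 TPM or above in each library were 5 of 5 limb mesenchyme markers, whose median was 135 TPM, and 5 of 5 contractile muscle markers, whose median was 20.8 TPM. Erythroid markers were at 1 TPM in both libraries for 4 of 4 genes, with a median of 1728 TPM. They ranged from Gata1 at 2.72 and 2.00 TPM to the globin gene Hbb-y at 5993 and 5247 TPM. Heart markers were at 1 TPM in both libraries for 2 of 4 genes and liver markers for 2 of 3, with medians of 1.57 and 1.69 TPM. In bulk tissue, fewer cells of a type and less RNA per cell cannot be told apart.

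The subunit genes were among the more abundant messages of the limb bud. In all, 79 of 84 reached 1 TPM in both libraries, where 56.2% of 21461 nuclear protein-coding genes did. At 100 TPM in both libraries there were 72 of 84, against 6.56% of nuclear protein-coding genes. Their median was 259 TPM, with the quartiles at 156 and 413 TPM, while the median over nuclear protein-coding genes was 3.0 TPM, and 19.8 TPM over those at 1 TPM or more. The median subunit gene stood above 97.7% of nuclear protein-coding genes. Together the 84 genes held 3.12% ± 0.0563 of gene TPM (SD, n = 2), with 3.16% in replicate 1 and 3.08% in replicate 2. Their share of gene counts was lower, 1.40% (Wilson 95% interval 1.39 to 1.40) and 1.34% (1.33 to 1.34), since they are short: the median length was 667 nt against 2079 nt for nuclear protein-coding genes. These intervals cover counting error only.

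Levels were spread over a narrow range apart from a low tail. Between 100 and 300 TPM lay 34 genes, between 300 and 1000 TPM lay 37, and 1 gene exceeded 1000 TPM. Below 100 TPM there were 12: 2 from 50 to 100 TPM, 3 from 10 to 50, 2 from 1 to 10 and 5 under 1. The order of the genes was nearly the same in both libraries, with a Spearman rho of 0.998 across the 84 genes, which share their libraries and are not independent.

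**Figure D1:**
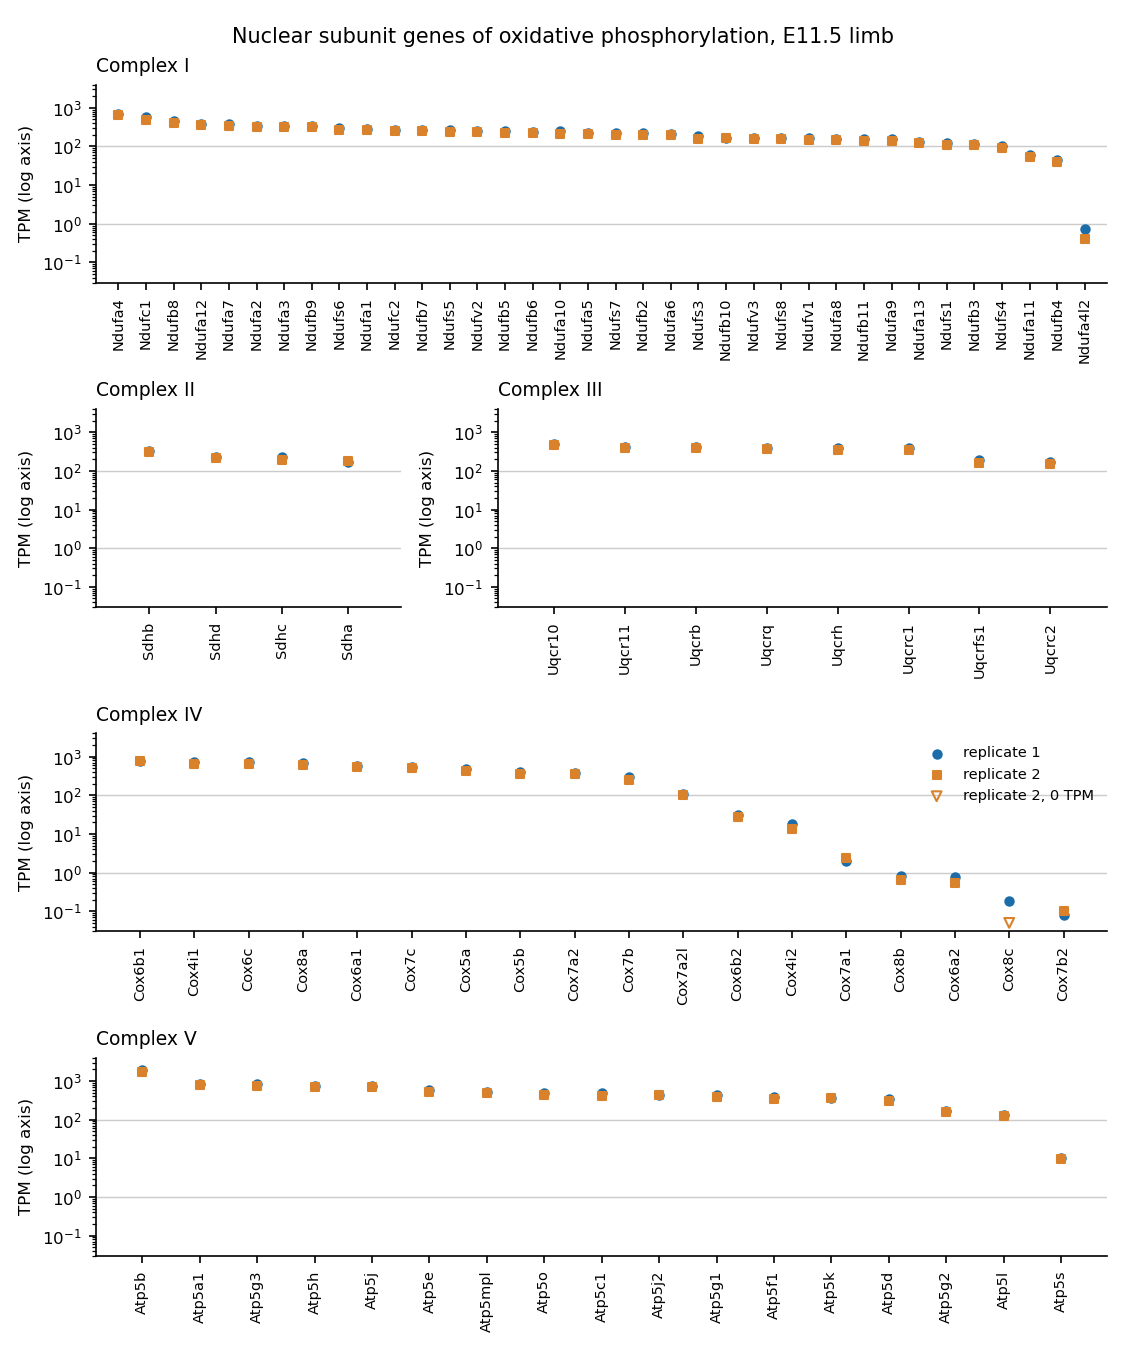
TPM on a log axis of nuclear subunit genes in replicate 1 (circles) and replicate 2 (squares), by complex and ordered by mean, with an open triangle for 0 TPM and grey lines at 1 and 100 TPM. In each complex most genes lie at or above 100 TPM, and the tail below 1 TPM holds Ndufa4l2 in complex I and Cox8b, Cox6a2, Cox8c and Cox7b2 in complex IV.

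Complex I, NADH dehydrogenase, takes electrons from NADH and passes them to ubiquinone. Its 37 genes had a median of 210 TPM and summed to 8867 TPM in replicate 1 and 8128 in replicate 2. The 7 core genes, which carry the flavin, the iron-sulphur clusters and the quinone site, had a median of 168 TPM and ranged from 116 to 243. Among them, Ndufv1, the NADH-binding flavoprotein, was at 165 TPM in replicate 1 and 147 in replicate 2. Ndufs1, which holds several iron-sulphur clusters, had 123 and 109 TPM. Replicate 1 read higher in both genes, and Ndufs1 was the lowest core gene. Ndufv2, which carries a further iron-sulphur cluster, was the highest at 251 and 235 TPM. Ndufs7 and Ndufs8, with the clusters nearest to quinone, lay between, at 222 and 197 TPM for Ndufs7 and 161 and 152 TPM for Ndufs8.

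The 28 accessory genes of complex I, which surround the core and are needed for its assembly and stability, had a median of 230 TPM and a range from 42.7 to 527. Ndufc1 and Ndufb8, both of the membrane arm, were the highest, with 561 and 493 TPM for Ndufc1 and 442 and 408 TPM for Ndufb8. Transcripts annotated as coding held only 52.2% and 49.0% of the TPM of Ndufc1 in replicates 1 and 2. Its main coding transcript had 290 and 236 TPM, below the 400 and 369 TPM of that of Ndufb8. The lowest were Ndufb4, at 44.7 and 40.6 TPM, and Ndufa11, at 59.6 and 53.7. Ndufb4 has a copy elsewhere in the genome, described below, and its value is uncertain for that reason. The other accessory genes given here were chosen after their values were seen. Ndufa12 and Ndufa7 stood at 392 and 361 TPM and at 380 and 347 TPM. Ndufs4, Ndufs6 and Ndufv3, which are attached to the NADH and quinone modules, had 102 and 93.7 TPM (Ndufs4), 292 and 273 TPM (Ndufs6) and 170 and 153 TPM (Ndufv3). Ndufs4 was thus lower than the other two in both libraries. Ndufa1 and Ndufb11, with Cox7b of complex IV the X-linked members, were at 289 and 266 TPM and at 158 and 140 TPM. Ndufa13, whose product is also known as a cell death regulator, was at 133 and 121 TPM. Grouped by name, the 10 Ndufb genes had a median of 220 TPM and the 12 Ndufa genes other than Ndufa4 and Ndufa4l2 a median of 224. The 8 Ndufs genes had a median of 187 TPM, the 3 Ndufv genes 162 and the 2 Ndufc genes 393.

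Ndufa4 is named for complex I but its product is found with complex IV. It was the highest gene of the complex I names, with 708 TPM in replicate 1 and 659 in replicate 2, inside the range of the broad complex IV subunits. Its paralogue Ndufa4l2, known as a gene induced in low oxygen, had 18 counts and 0.740 TPM in replicate 1 and 8 counts and 0.400 TPM in replicate 2. The ratio of Ndufa4 to Ndufa4l2 was 1199 in mean TPM. Ndufa4l2 overlaps Shmt2 on the opposite strand, which had 4188 and 3301 counts. How much of the Ndufa4l2 signal came from Shmt2 reads was not tested, as nothing in the sources used here says whether counting used strand.

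Complex II, succinate dehydrogenase, is also an enzyme of the citric acid cycle and has 4 subunits. Sdha, the flavoprotein that oxidises succinate, was at 169 TPM in replicate 1 and 176 in replicate 2, one of 3 subunit genes higher in TPM in replicate 2. Sdhb, the iron-sulphur protein, had 333 and 299 TPM. The membrane anchors had 224 and 195 TPM for Sdhc and 231 and 209 TPM for Sdhd. All 4 fell inside the middle range of the whole set, and Sdhb exceeded Sdha by more than their spread between libraries, as the groups of values did not overlap. Complex II held 0.107% of gene TPM against 0.993% for complex I.

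Complex III, the cytochrome bc1 complex, passes electrons from ubiquinol to cytochrome c. Its 8 genes in the set had a median of 372 TPM. The highest were small subunits: Uqcr10 at 506 and 475 TPM, Uqcr11 at 422 and 391, and Uqcrb at 421 and 389. Uqcrfs1, the Rieske iron-sulphur protein that takes part in electron transfer, was at 186 and 162 TPM. Uqcrq and Uqcrh, the hinge protein that contacts cytochrome c1, had 391 and 358 TPM and 387 and 350 TPM, and were chosen after their values were seen. The 5 small subunits therefore all lay above Uqcrfs1 in both libraries, with no overlap. Of the pair of core proteins, Uqcrc1 had 384 and 343 TPM and Uqcrc2 173 and 149, so Uqcrc1 was higher in both libraries without overlap. Cyc1, the cytochrome c1 subunit whose name the rule does not take, had 290 and 267 TPM.

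Complex IV, cytochrome c oxidase, reduces oxygen to water. The 10 broadly expressed subunit genes had a median of 534 TPM and a range from 272 to 769. Cox6b1 was highest at 782 TPM in replicate 1 and 757 in replicate 2, followed by Cox4i1 at 730 and 650 and Cox6c at 712 and 630. Cox5a and Cox5b, which sit against the catalytic core, had 479 and 435 TPM for Cox5a and 410 and 363 TPM for Cox5b. Below Cox6c and above Cox5a stood Cox8a at 664 and 604 TPM, Cox6a1 at 581 and 528 and Cox7c at 529 and 497. All 3, of which Cox7c was chosen after its values were seen, are single-helix subunits around the mitochondrially coded core. Cox7b was the lowest broad gene, at 292 and 252 TPM. Cox7a2l, a relative of subunit 7a, had 110 and 101 TPM.

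The 7 tissue-restricted forms of complex IV subunits were far lower, with a median of 0.730 TPM, a highest mean of 29.0 TPM and sums of 52.0 and 44.9 TPM in replicates 1 and 2. Cox4i2, the lung form of subunit 4, had 313 counts and 17.7 TPM in replicate 1 and 202 counts and 13.7 TPM in replicate 2. Its partner Cox4i1 was 43.9-fold higher in mean TPM, and the log2 ratio of the pair, on TPM plus a pseudocount of 0.1, was 5.46 ± 0.14 (SD, n = 2). Cox6b2, the testis form of subunit 6b, was the highest restricted form, at 30.5 and 27.4 TPM, with Cox6b1 26.6-fold above it. These were the restricted forms with more than 200 counts in each library, and they made up 2.37% and 2.07% (Cox4i2) and 3.75% and 3.50% (Cox6b2) of the TPM of their pairs. Among endothelial markers the median was 18.5 TPM and among smooth muscle and pericyte markers 3.89 TPM, with Pdgfrb at 39.2 and 40.6 TPM and Myh11 at 0.02 and 0.01 TPM. Which cells held the Cox4i2 and Cox6b2 messages was not tested.

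The heart and muscle forms lay at or near the detection limit. Cox7a1 had 15 counts in each library, 2.01 and 2.42 TPM, and its liver-type partner Cox7a2 was 165-fold higher. Cox6a2 had 12 and 7 counts, 0.760 and 0.540 TPM, against 581 and 528 TPM for Cox6a1. Cox8b had 6 and 4 counts, 0.810 and 0.650 TPM, against 664 and 604 TPM for Cox8a. In ratio of mean TPM, Cox6a1 exceeded Cox6a2 853-fold and Cox8a exceeded Cox8b 869-fold, with counting intervals of 541 to 1403 and 470 to 1801 from counts per length. In the same libraries the heart markers summed to 9.37 TPM in replicate 1 and 4.51 TPM in replicate 2, with Tnni3 at 4.30 and 2.43 and Myh6 at 0.660 and 0.200. The muscle marker Actc1, which heart also expresses, was at 75.5 and 62.9 TPM and Acta1 at 9.50 and 9.71. The part of heart tissue or of limb muscle in the Cox6a2, Cox7a1 and Cox8b counts was not tested.

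The testis forms Cox7b2 and Cox8c were barely counted. Cox7b2 had 1 count in each library, and Cox8c had 2 counts in replicate 1 and 0 in replicate 2. The counting interval of that 0 reached up to 0.418 TPM. The ratio of Cox7b to Cox7b2 from counts per length was 3111 with an interval of 861 to 25689, and that of Cox8a to Cox8c was 6191 with an interval of 1714 to 51124. Of the low forms, Cox7a1 stood nearest to its partner, since the interval of its ratio, 117 to 248, lay below those of the other pairs with few counts in complex IV. The intervals of Cox6a2 and Cox8b overlapped each other and those of Cox7b2, and no order among these could be read at this depth.

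**Figure D2:**
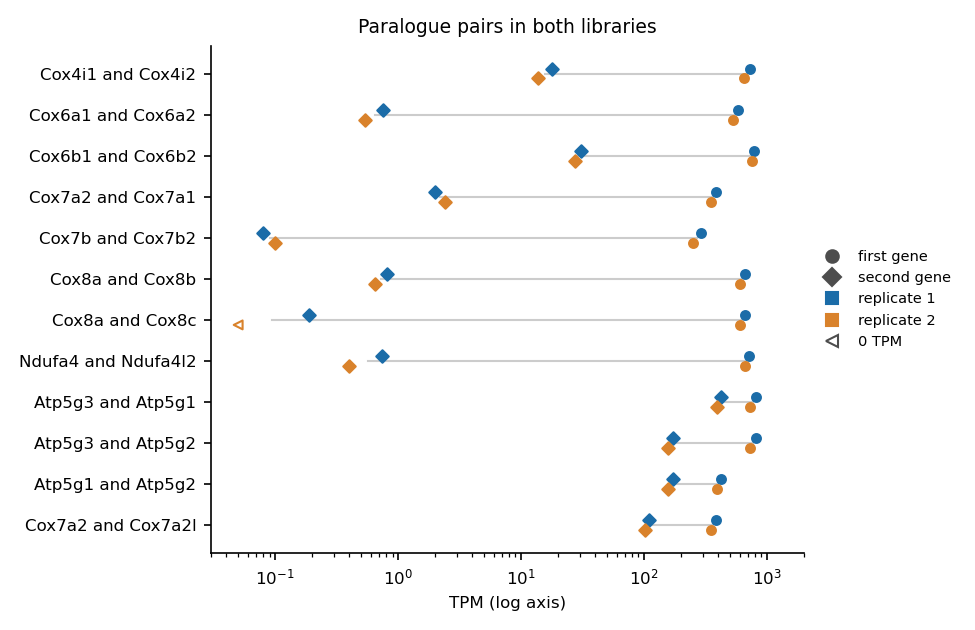
TPM on a log axis of 12 paralogue pairs, with the first gene as circles, the second as diamonds, replicate 1 in blue, replicate 2 in orange and an open triangle for 0 TPM. In the pairs of complex IV other than Cox7a2 with Cox7a2l, and in Ndufa4 with Ndufa4l2, the second gene lies over 20-fold below the first in both libraries, while the Atp5g pairs and Cox7a2 with Cox7a2l lie within 4.70-fold of each other in mean TPM.

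Complex V, ATP synthase, uses the proton gradient to make ATP and had a median of 449 TPM over 17 genes, the highest of the 5 complexes taken whole. The 10 broad genes of complex IV alone had a higher median, 534 TPM. Atp5b, the catalytic beta subunit (chr10:128083273-128090391, GRCm38, plus strand), was the highest of all 84 genes, at 1912 TPM in replicate 1 and 1721 in replicate 2. Atp5a1, the alpha subunit that alternates with beta in the catalytic head, had 829 and 769 TPM. In the assembled head alpha and beta are present in equal numbers, and the mean TPM of Atp5b was 1817 ± 135 against 799 ± 42.0 for Atp5a1 (SD, n = 2). Transcripts annotated as coding held only 70.7% and 70.6% of the TPM of Atp5b in replicates 1 and 2. Its main coding transcript had 1353 and 1215 TPM, against 779 and 739 TPM for that of Atp5a1. The gap was thus narrower in coding transcripts, while the order held. The single-copy head subunits were lower, with Atp5c1, the gamma shaft, at 481 and 417 TPM and Atp5d, the delta subunit, at 337 and 309. Atp5e, the small epsilon subunit, which like the stalk and small membrane genes below was chosen after values were seen, had 578 and 534 TPM, above both of these in each library. Transcript levels per length say nothing of protein amounts.

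The 4 genes of the peripheral stalk, which holds the head against rotation, had a median of 598 TPM, and the 4 small membrane subunits a median of 402. In the stalk, Atp5h, subunit d, had 751 and 704 TPM and Atp5j, subunit F6, had 749 and 699, which did not differ beyond their spread. Atp5o, the oligomycin sensitivity protein that caps the head, had 500 and 444 TPM, and Atp5f1, subunit b, had 386 and 348. In gene TPM the stalk genes thus fell into a higher and a lower pair without overlap. This pairing did not hold for coding transcripts, which made up only 37.1% and 39.6% of the TPM of Atp5j in replicates 1 and 2. Its main coding transcript had 225 and 219 TPM, below the 491 and 436 TPM of that of Atp5o. The small membrane subunits lie beside the ring, and Atp5mpl was the highest of them at 530 and 505 TPM. Atp5j2 had 448 and 429 TPM and Atp5k 372 and 359. Atp5l, subunit g, was the lowest of these at 131 and 125 TPM, but it also has a copy described below. Atp5s, a coupling factor B-like gene whose product is not a stable subunit, had 10.4 and 9.56 TPM and was the lowest gene with an Atp5 name. Subunit c, which forms the rotating ring, is made from 3 genes with different import sequences and the same mature protein. Atp5g3 was highest with 814 and 730 TPM, followed by Atp5g1 with 424 and 394 and Atp5g2 with 171 and 158. In shares of their sum, Atp5g3 held 57.4% ± 0.585, Atp5g1 30.4% ± 0.448 and Atp5g2 12.2% ± 0.137 (SD, n = 2), and the order was the same in both libraries.

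Several of these values rest on how reads were shared with processed pseudogenes, intronless copies of a message elsewhere in the genome. Of the 84 genes, 30 had 60 pseudogene copies at 90% identity or more over at least 100 coding nucleotides, and 17 of the copies had no counts. Copies were sought for the subunit genes only, so whether 30 of 84 is unusual was not tested. For most of the 30 genes the copies held few reads, with a median of 0.176% of the counts of gene and copies. In 5 genes, named here because of this result, they held over 5%: Atp5l with 78.9% and 77.3% in replicates 1 and 2, Ndufb4 with 74.1% and 73.9%, Atp5g2 with 58.8% and 55.5%, Cox7c with 14.5% and 16.1%, and Atp5g1 with 13.9% and 14.9%. Nearly all of these reads lay on 1 copy per gene. Gm10221, at chr5:24581554-24581862, held 5669 and 4101 counts against 1518 and 1205 for Atp5l. Ndufb4c, at chr15:73809507-73809896, held 1868 and 1397 counts against 654 and 495 for Ndufb4. Gm10175, at chr7:23946646-23947290, held 4313 and 2890 counts against 3025 and 2320 for Atp5g2. The coordinates are on GRCm38.

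Gene and copy were compared base by base. Over the whole coding sequence, 387 nt of Ndufb4 and 309 nt of Atp5l, gene and copy had 0 differences, and so it was for 438 nt of Atp5g2 and 189 nt of Cox7c. Gm10039 differed from Atp5g1 at 1 base of 408. By contrast, Cox6c2, a copy of Cox6c that held only 9 and 26 counts against 8265 and 6116 for its parent, differed at 7 bases of 228. The stretches below are 90 bases each, read from GENCODE M21 transcripts: the start of the coding sequence for Ndufb4, Atp5l and Cox6c, and coding bases 296 to 385 for Atp5g1. Capitals mark bases that differ between gene and copy.
Ndufb4: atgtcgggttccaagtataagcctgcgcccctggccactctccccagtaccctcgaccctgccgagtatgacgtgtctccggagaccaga
Ndufb4c: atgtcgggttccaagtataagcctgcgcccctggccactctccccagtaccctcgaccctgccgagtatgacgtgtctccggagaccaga
Atp5l: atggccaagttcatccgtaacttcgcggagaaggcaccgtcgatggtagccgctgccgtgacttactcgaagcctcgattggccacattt
Gm10221: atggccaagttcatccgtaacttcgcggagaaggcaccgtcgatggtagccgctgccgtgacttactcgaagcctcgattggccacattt
Atp5g1: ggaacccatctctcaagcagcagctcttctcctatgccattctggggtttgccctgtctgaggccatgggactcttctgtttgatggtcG
Gm10039: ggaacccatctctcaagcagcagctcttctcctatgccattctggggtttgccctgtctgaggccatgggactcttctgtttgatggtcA
Cox6c: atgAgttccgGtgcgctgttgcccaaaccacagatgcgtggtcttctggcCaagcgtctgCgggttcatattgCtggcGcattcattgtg
Cox6c2: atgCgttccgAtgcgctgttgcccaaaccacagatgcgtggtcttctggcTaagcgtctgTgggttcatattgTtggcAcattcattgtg

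When the TPM of the copies was added to that of the closest gene, as an alternative chosen after seeing the data, 5 levels moved. Atp5l went from 128 to 713 TPM and Ndufb4 from 42.7 to 259 TPM, which removed both from the low end of their complexes. Atp5g2 went from 164 to 447 TPM and Atp5g1 from 409 to 524, so the gap between those subunit c genes narrowed while their order held. Cox7c went from 513 to 918 TPM, though Gm12338, its main copy, held 1014 and 886 counts against 6325 and 4895 for the gene. Gm12338 had 387 and 407 TPM, since TPM is corrected for length and a short copy gains more in TPM than in counts. The values of Atp5l and Ndufb4 with copies added rest on the same correction. Neither the value with the copies nor that without them is known to be the true level, as reads of an identical sequence cannot be told apart.

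**Figure D3:**
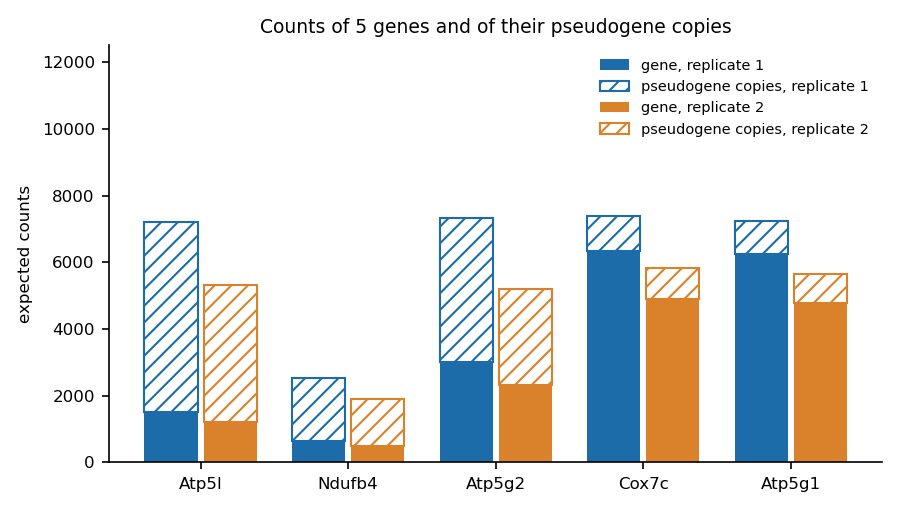
Expected counts of 5 subunit genes (filled) with those of their pseudogene copies stacked above (hatched), in replicate 1 (blue) and replicate 2 (orange). In Atp5l, Ndufb4 and Atp5g2 the copies hold more counts than the gene in both libraries.

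Most subunit genes were read as 1 main transcript. Of 78 genes with at least 5 TPM in each library, 56 had more than 1 transcript in the tables, and the leading transcript held a median of 91.0% of the gene's TPM. The same median over 7193 nuclear protein-coding genes was 70.9%. In 41 of the 56 genes the leading transcript held 75% or more. The transcripts annotated as protein coding held a median of 95.8% per gene, against 92.4% over the larger set.

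Some genes had 2 coding forms or a leading form that is not coding, and they were chosen after their values were seen. Ndufv3, an accessory subunit of the NADH module with a short and a long form, was mainly the short form: Ndufv3-202, of 312 coding nt, held 82.3% and 84.0% of TPM in replicates 1 and 2 and Ndufv3-201, of 1404 coding nt, held 16% and 14.9%. Atp5c1, known for a splice form of heart and muscle, was mainly Atp5c1-203 with 89.8% and 88.7%, while Atp5c1-201 held 8.59% and 9.02%. Their coding lengths were 894 and 891 nt, and which of them is the muscle form was not determined. In 6 of the 56 genes, 10.7% against 8.37% of the larger set, the leading transcript was not annotated as coding: Atp5f1, Atp5j, Cox5b, Ndufa10, Ndufa5 and Ndufb4. Atp5j, subunit F6 of the stalk, gave 60.0% and 57.3% of its TPM to the retained-intron transcript Atp5j-208. For Atp5f1, subunit b of the stalk, Atp5f1-203, annotated as a target of nonsense-mediated decay, held 66.6% and 65.6%. Cox5b-205, a processed transcript of 362 nt, held 58.3% and 56.9% of Cox5b, though the coding transcripts held 63.2% of the gene's counts. Ndufa5-204, a processed transcript, held 93.4% and 92.4% of Ndufa5, an accessory gene of complex I, the highest such share. In a seventh gene, Cox7b, the coding transcript led with 45.2% and 50% beside the retained-intron Cox7b-203 with 47.4% and 46.1%, so the libraries differed in which was ahead. With Cox7b, 12.5% of the 56 genes had under 50% of TPM in coding transcripts, against 9.91% of the larger set. The TPM shares of these short fragments rest on a length correction, and total RNA also holds unspliced RNA, whose part was not tested.

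Overlapping genes touched other values, and the examples were chosen after their values were seen. In 15 of the 84 genes a gene on the opposite strand overlapped and had at least 10% of the subunit gene's counts. The share over all genes was not counted, so whether 15 of 84 is unusual was not tested. Ndufs1 overlaps Eef1b2, a translation elongation factor, which had 10505 and 7583 counts against 7113 and 5410 for Ndufs1. Atp5j overlaps Gabpa, which codes for part of a transcription factor of respiratory genes and had 4059 and 3109 counts against 11078 and 8675. Cox4i1 overlaps Emc8, with 5507 and 4354 counts against 13199 and 9767. What share of reads belonged to the other gene in such pairs was not tested.

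The other genes of the pathway differed in level by their role. The 13 subunits coded in the mitochondrial genome had a median of 1081 TPM and summed to 20941 and 20198 TPM, or 2.41% ± 0.0452 of gene TPM (SD, n = 2), against 3.12% for the 84 nuclear genes. The highest were mt-Atp6, at 5294 and 4966 TPM, and mt-Atp8, at 4615 and 4531. The lowest were mt-Nd4l, at 15.0 and 55.4 TPM, and mt-Nd3, at 266 and 220. The value of mt-Nd4l rests on 83 and 257 counts, and how reads were shared among mitochondrial genes was not tested. The 2 compartments thus gave sums of the same order from very different numbers of genes.

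Assembly factors insert cofactors and join subunits without staying in the complex. With the inhibitor Atpif1 counted among them, the median was 33.7 TPM over 47 genes, and 46 reached 1 TPM in both libraries. For complex I, Ndufaf2 was at 79.6 and 75.6 TPM and Ndufaf8 at 55.8 and 52.4, with Nubpl lowest at 14 and 12.2. For complex II, Sdhaf4 led at 77.9 and 71.0 TPM and Sdhaf3 was lowest at 5.67 and 5.47. For complex III, Uqcc2 had 304 and 287 TPM, within the range of the subunits, and Lyrm7 5.25 and 4.60. For complex IV, Coa3 had 162 and 142 TPM and Cox14 97.4 and 87.2, while Sco2, which helps deliver copper, had 3.87 and 4.70 and Pet117 0.280 and 0. For complex V, the inhibitor Atpif1, which holds back ATP hydrolysis, had 866 and 791 TPM, above all Atp5 genes other than Atp5b. These lists hold longer genes than the subunit set, with a median of 1435 nt against 667 nt.

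Of the subunits and carriers that the naming rule leaves out, Ndufab1, an acyl carrier protein of complex I, was at 561 and 494 TPM. Cycs, the somatic cytochrome c, had 56.5 and 55.2 TPM, under the levels of the complexes it links, and the testis form Cyct was at 0 in both libraries. Among 13 regulators of respiratory genes the median was 22.4 TPM and 12 reached 1 TPM in both libraries. Tfam, which packages and transcribes mitochondrial DNA, had 88.7 and 81.5 TPM and Gabpb1, the partner of Gabpa, 87.0 and 80.2. The lowest were the coactivator Ppargc1b, at 1.40 and 1.90 TPM, and the nuclear receptor Esrra, at 2.54 and 0.940.

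**Figure D4:**
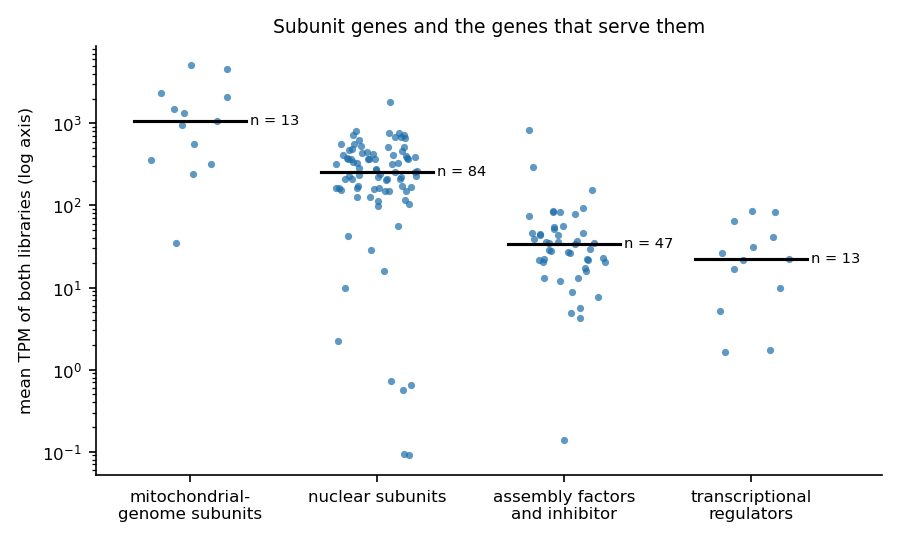
Mean TPM of both libraries on a log axis for 13 subunits coded in the mitochondrial genome, 84 nuclear subunits, 47 assembly factors (the inhibitor Atpif1 included) and 13 regulators, each point 1 gene and each black line the median. The medians are 1081, 259, 33.7 and 22.4 TPM.

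The promoters of 68 of the 84 genes were in the RefSeq table for GRCm38.p6, as 300 bases from 250 before to 50 after the start. They were searched on both strands for motifs known from respiratory genes, with a site that reads the same both ways counted once. The NRF1 motif, GCGC then any base then TGCGC, occurred in 17 of 68, or 25%, against 7.17% of 17492 protein-coding promoters and 15.4% of those of 1135 genes above 100 TPM. AAGATGGC, bound by YY1, occurred in 10, or 14.7%, against 3.57% and 7.31%. CCGGAAG, bound by ETS factors such as GABP, occurred in 16, or 23.5%, against 12.9% and 26.0%. GGGCGG, bound by SP factors, was less frequent, in 28 or 41.2%, against 49.2% and 71.9%. The shares are descriptions with no test, 18 of the 68 held none of the motifs, and a match is not a shown binding site.

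By complex, the NRF1 motif was in 7 of 32 genes of complex I, 2 of 3 of complex II, 1 of 5 of complex III, 1 of 13 of complex IV and 6 of 15 of complex V. The YY1 motif was in 7 genes of complex I, 3 of complex V and none of the others. All 10 YY1 matches lay from 100 bases before to 50 after the start, with a median position of 27.5 bases after it. In 9 of the 10 genes it ran along the gene's strand, and in 8 of these its ATG was the annotated start codon: Atp5j2, Ndufa3, Ndufa9, Ndufb8, Ndufc1, Ndufs4, Ndufs6 and Ndufs7. The sites below, with 10 bases on either side and the motif in capitals, are those of the 8 whose window reached so far, and a site of Atp5f1, where the motif ran on the opposite strand.
Atp5j2 (chr5:145191501-145191528, minus strand): ccaggacttcAAGATGGCgtcactcggt
Ndufa3 (chr7:3617385-3617412, plus strand): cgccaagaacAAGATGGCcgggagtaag
Ndufa9 (chr6:126849098-126849125, minus strand): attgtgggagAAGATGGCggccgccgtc
Ndufc1 (chr3:51408916-51408943, minus strand): cctgcggaacAAGATGGCgccgtccgta
Ndufs7 (chr10:80249463-80249490, plus strand): ggccgaggccAAGATGGCggcgctggcg
Atp5f1 (chr3:105959249-105959276, plus strand): gggcaggagcAAGATGGCcgctcgcaca

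NRF1 matches had a median position of −41.0 from the start. Among 16 windows with 10 bases on either side of a site, Ndufb4 and Sdha had the most matches, with 3 each, which may overlap. The first site of each window with more than 1 match is shown, with the motif in capitals, together with that of Atp5g2 for the subunit c genes.
Ndufb4 (chr16:37654540-37654569, plus strand): cgcgtattctGCGCGTGCGCactgcttctc
Sdha (chr13:74350319-74350348, plus strand): gagtggtggtGCGCCTGCGCcctgtaaacg
Cox6a1 (chr5:115349101-115349130, minus strand): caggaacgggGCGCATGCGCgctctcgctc
Uqcrc1 (chr9:108936643-108936672, plus strand): cttccttacaGCGCTTGCGCctcagactcc
Atp5g2 (chr15:102671070-102671099, minus strand): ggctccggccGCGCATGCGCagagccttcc

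Sequences are those of RefSeq on GRCm38.p6 in the direction that reads the motif. The sites differ at the free central base and in their flanks. The genes shown for NRF1 differed in level, from 44.7 and 40.6 TPM for Ndufb4 to 581 and 528 TPM for Cox6a1. With its copy added Ndufb4 was at 259 TPM. Sdha, at 169 and 176 TPM, and Atp5g2, at 171 and 158, were then the lowest of those shown for NRF1. With its own copies added Atp5g2 was at 447 TPM. Atp5b, the highest gene, held the SP motif only.

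The genes lay on 19 chromosomes, with 8 on chromosome 7, and 2 neighbouring pairs were closer than 100 kb. Ndufs8 and Ndufv1 on chromosome 19 were 94609 bases apart.

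The pools differed little in these genes. After scaling by TMM, 80 of the 84 genes had at least 20 counts over both libraries, and 0 passed an exact two-sided binomial test with an adjusted p under 0.05 and a log2 ratio of 1 or more in either direction, where 3.09% of 16787 genes did. That share covers genes of all levels, while most subunit genes were above 100 TPM, and 0 of 80 is near it. The widest log2 ratio among the 80 was −0.81, short of the limit, so a count of 0 with DESeq2 size factors as well adds no support. In the binomial test 48 of the 80 genes had an unadjusted p under 0.05, as did 39.4% of all genes tested. Without the limit on size, 35 of the 80 were lower in replicate 2, against 15.4% of all genes tested, and 0 were higher, against 14.3%. The largest of these differences were small: Ndufs3 had 4489 and 3211 counts, a log2 ratio of replicate 2 over replicate 1 of −0.17, and Atp5c1 had 14364 and 10359 counts, a log2 ratio of −0.16. Uqcrfs1 followed at −0.15, with Ndufv1 at −0.14. The test sets counting noise alone against each difference and leaves out the spread between replicates, for which edgeR gave a biological coefficient of variation of 7.65% over 16118 genes.

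The 2 tested genes furthest below 0 did not pass. Ndufa4l2 had a log2 ratio of −0.81 from 18 and 8 counts, with an adjusted p of 0.315 in the exact binomial test. Cox4i2 had −0.31 from 313 and 202 counts, with an adjusted p of 0.0546 in the same test. On the other side Cox7a1 was at 0.32 from 15 counts in each library and Sdha at 0.03 from 12301 and 10062, with adjusted p of 0.729 and 0.317 in the exact test.

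The direction was shared: 77 of 80 genes had a log2 ratio below 0, or 96.2%, against 51.7% of all genes tested, and the median was −0.08 against −0.01. By complex the medians were −0.08 for I, −0.10 for II, −0.09 for III, −0.09 for IV and −0.06 for V. Gene length moved with this value: over 599 nuclear protein-coding genes of 300 to 800 nt the median was also −0.08, and in the 51 subunit genes of that length it was −0.07. With a smooth on gene length taken off, the medians were −0.02 for the subunit genes and −0.00 for all genes. Across genes, the log2 ratio rose with length over all genes tested (Spearman rho 0.18, n = 16787) but fell with length over the 80 subunit genes (rho −0.41), so the relation with length ran the opposite way among them. These genes share their libraries, and the part of length in the shared direction was not tested beyond this. Among genes at 100 to 1000 TPM the SD of the log2 ratio was 0.04 over 71 subunit genes and 0.09 over 1386 nuclear protein-coding genes, a description of these libraries. Of the other lists, 1 of 13 mitochondrial-genome subunits was higher in replicate 2 by the test with its size limit (mt-Nd4l, a log2 ratio of 1.94). In the same test 1 of 13 regulators was lower (Esrra, −1.02), and 0 of 46 tested assembly factors, Atpif1 included, were called. Markers of other tissues were also lower in replicate 2 by that test: 2 of 4 heart markers (Nppa at −2.62 and Myh6 at −1.66) and 2 of 3 liver markers (Afp at −1.12 and Alb at −2.85). The part of such tissue in the lower ratios of the subunit genes was not tested.

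**Figure D5:**
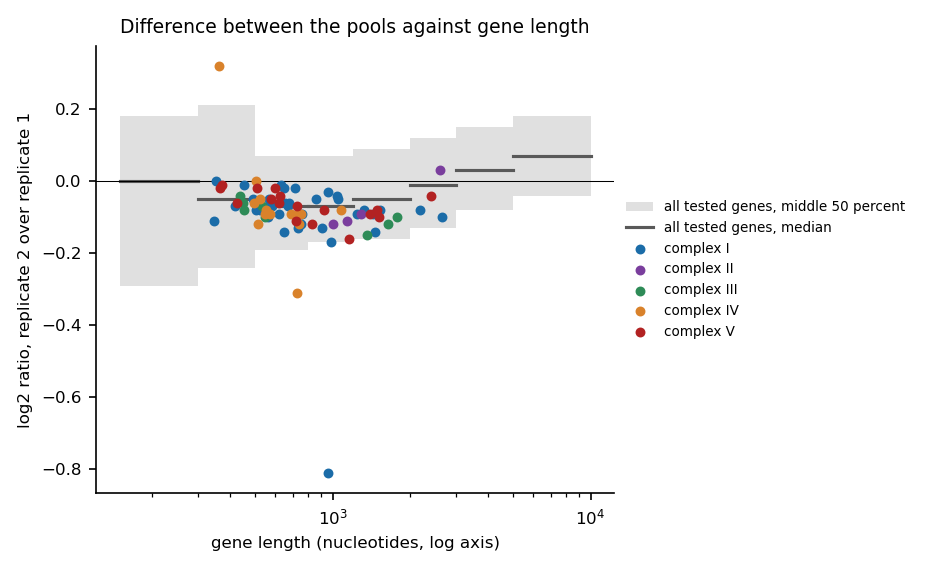
Log2 ratio of replicate 2 over replicate 1 (TMM-scaled counts) against gene length on a log axis, for the 80 tested subunit genes coloured by complex, with the median (dark lines) and middle 50 percent (grey) of all tested genes in bins of length. The subunit genes cluster around a median of −0.08, near the medians of −0.05 to −0.07 of all genes in the bins from 300 to 1200 nt, and Ndufa4l2 lies lowest at −0.81.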

How the data were processed

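Total RNA libraries of 2 embryo pools formed 1 group per the labels. The authors deposited expected counts, which estimate the reads of a gene or transcript and can be fractional. They also deposited TPM scaled over all entries, spike-ins included, with effective length 99.0 nt below length. Percent values in the deposited transcript tables are each transcript's part of its gene's TPM. Per the file headers and the text deposited with them, reads were aligned to mm10 with GENCODE M4. The aligner, its version and whether strand was used: not given in the sources used here. Entries that are not genes held 5.37% and 7.92% of counts in replicates 1 and 2 and stayed out of library sizes and tests.

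Gene symbols, biotypes and positions were taken from GENCODE M21 on the same build (GRCm38), which matched 42462 gene IDs and left 884 unmatched, so transcript names may differ from M4. Scaling used edgeR 4.0.16 TMM, with effective sizes of 40.4 M and 32.5 M. An exact two-sided binomial test compared rounded expected counts, for genes with 20 counts or more over both libraries, with Benjamini-Hochberg adjustment at 0.05; log2 ratios used a prior count of 0.5. A quasi-likelihood contrast needs a second group, and the p-values measure the difference between these libraries. Counting intervals are exact Poisson at 95% unless named Wilson. Copies were found with blastn 2.17.0 on coding sequences. The binomial test was tried on simulated Poisson counts with no spread between replicates, and the other steps were not simulated.

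Members, pairs, motifs and gene lists were chosen with earlier results of these data known. Named are the 3 highest and 3 lowest genes per complex, genes under 1 TPM, paralogue pairs, catalytic subunits, the 5 widest log2 ratios in each direction, and the 2 highest and 2 lowest genes of other lists; any others were picked after seeing their values, and the text says so. Alternatives were other TPM estimates, denominators, thresholds, scalings, pseudocounts, windows and single libraries. Of the markers, 4 of 4 erythroid genes (median 1728 TPM), 4 of 4 endothelial, 3 of 5 smooth muscle and pericyte and 3 of 3 neuron genes (7.89 TPM) reached 1 TPM in both libraries. The values of 1 member are not reported here and it is not drawn by name, while counts, sums and medians include it.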

Additional observations from a re-analysis of the deposited data

Results flagged for a closer look

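Counts lay on pseudogenes that carry the naming pattern of the subunit genes but are not protein coding. Ndufb4c, with a coding sequence identical to that of Ndufb4, had 1868 counts in replicate 1 and 1397 in replicate 2. Cox6c2, a copy of Cox6c, had 9 and 26 counts, above a floor of 3 counts. Both are given because they lie outside the genes compared, and with 1 group there is no control sample to set them against.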

How the results depend on the processing

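Of 292 alternatives, 244 left their value within its bounds and 0 turned a direction. For pairs and leading transcripts the bounds rested on the SD between libraries. Leaving either library out moves such a mean by less than this SD. Those alternatives therefore stayed within bounds by construction, apart from rounding, and their part of the 244 says nothing of robustness. Rescaling TPM over protein-coding genes takes out spike-ins, other entries that are not genes and genes not annotated as protein coding. The median then rose from 259 to 337 TPM over all members. For complexes I to V it rose to 274, 280, 485, 415 and 585 TPM. With members under 1 TPM left out, and no such rescaling, the median over members was 277 TPM. With pseudogene copies added to their closest gene, an alternative chosen after seeing the data, it was 275 TPM, and 517 TPM for complex V. The share of gene TPM held by members was 3.48% over protein-coding genes and 3.04% with posterior mean TPM. The median share of the leading transcript was 89.6% with posterior mean TPM and ranged from 90.3% to 91.0% with either library left out. Without a limit on the log2 ratio, 35 members passed between the pools. Under each of the 6 other settings of that test, which all kept the limit, 0 did. The median log2 ratio between the pools kept its sign under 6 alternatives, from −0.08 to −0.02 with a smooth on gene length. On the gene's strand alone, 10 members held the NRF1 motif, 5 the ETS motif and 16 the SP motif, as fewer strands were searched. Of 60 alternatives over the 12 pairs, 13 moved the ratio and none turned it; the widest were Cox8a to Cox8c, at 9.18 with a pseudocount of 1 TPM and 13.79 with 0.01 TPM. Of 168 alternatives over leading transcripts, 18 moved the share. No paired analysis was possible because the labels give 1 group. Depth limits the forms with few counts, Cox7b2 and Cox8c above all.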
